A study of Ovis aries with 57 samples.

Results

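The galectin genes described here are the rows of the deposited sheep tables listed under LGALS15, LGALS1, LGALS3, LGALS4, LGALS8, LGALS9 or LGALS3BP, followed through the uterine luminal epithelium (LE), the glandular epithelium (GE) and the conceptus of early pregnancy. Of these 7 symbols, 5 had a row among 25174 identified features: LGALS15 (ENSOARG00000019088), LGALS3 (ENSOARG00000021088), LGALS4 (ENSOARG00000005839), LGALS8 (ENSOARG00000003629) and LGALS3BP (ENSOARG00000003257). No row carried the symbol LGALS1 or LGALS9. A row named GAL-1 is described after the members, and LGALS9 was not analysed here. Expression is given as RPKM, the exon reads of a gene scaled to its exon length and to the mapped reads of the library, so that levels of different genes can be set side by side.

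Galectins are lectins that bind galactose-containing sugar chains of glycoproteins on cell surfaces and in the extracellular space. They are made without a signal peptide and still leave the cell, and once outside they can bridge integrins, laminins and other glycoproteins. LGALS15 is a galectin of ruminants that the endometrial luminal epithelium releases into the uterine lumen, where it meets the elongating conceptus. LGALS3 is the chimera-type galectin, with a single sugar-binding domain and a long flexible tail, and LGALS4 and LGALS8 are tandem-repeat galectins. LGALS3BP is no galectin itself but a secreted glycoprotein that galectin-3 binds, and it is known from other mammals as an interferon-induced gene.

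RNA was sequenced from pregnant sheep. LE was captured by laser from frozen sections of the uterine horn ipsilateral to the ovary on days 10, 12, 14, 16 and 20 of pregnancy, with 4 libraries a day and 20 in all, and GE was captured from the same sections with the same numbers. Whole conceptuses, flushed from the uterus, came from day 12 (5 libraries) and from days 14, 16 and 20 (4 libraries each), 17 in all. Per the labels' protocol, all LE and GE RNA and the RNA of day 12 conceptuses was amplified before sequencing, and none is described for later conceptuses. The sample labels conflict with this for day 12: they name amplification for LE and GE only, and give ribosome-depleted RNA for the conceptuses of all 4 days. The protocol is followed here, and whether day 12 conceptus RNA was amplified cannot be settled from the files. Every group was pregnant and none was treated, and the labels give neither breed nor age.

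Mapped reads per library ranged from 8.04 to 26.01 M reads in LE, from 7.86 to 22.32 M reads in GE and from 14.62 to 27.38 M reads in the conceptus. In LE, day 14 libraries listed 4528 to 5997 genes at 1 RPKM or more, and those of other days 6247 to 8741. In GE, day 14 libraries listed 6539 to 7916 such genes, and those of other days 7152 to 9161. Within a day, pairs of LE libraries correlated between 0.651 and 0.765 on day 14 and pairs of GE libraries between 0.740 and 0.795 (log2(RPKM + 1) over genes), below every other day of either tissue. All LE and GE libraries of day 14, and no others, carry a B before their number. The labels do not say what the B marks. In LE and GE, day 14 and this separately numbered set cannot be told apart in comparisons with other days. The tissue labels were checked against marker genes: the summed RPKM of 3 epithelial markers was 61.31 to 456.7 in LE and 135.3 to 340.5 in GE, and FOXA2, a gland transcription factor, was listed at 0 in all LE libraries of days 12, 16 and 20. It was not at 0 throughout LE on days 10 and 14, nor throughout GE on any day. The summed gland markers separated the tissues on day 10, at 220.8 to 2283 RPKM in LE and 5368 to 11226 in GE. On day 12 they overlapped at the edge, at 57.99 to 567.6 in LE and 547.5 to 1060 in GE. On day 20 they also did, at 155.9 to 4194 in LE and 3456 to 12283 in GE. They did not separate the tissues on day 16, at 1574 to 6276 RPKM in LE and 439.1 to 3844 in GE. The same held on day 14, at 185 to 1262 in LE and 185.9 to 1371 in GE. Trophectoderm markers summed to 22.4 to 16654 RPKM in conceptus libraries, against at most 13.3 in LE and 2.00 in GE. Stromal markers were present in both epithelia, at 22.75 to 650.8 RPKM in LE and 98.67 to 431.9 in GE. In such tissue RNA, fewer cells of a type and less RNA per cell cannot be told apart.

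LGALS15 was far higher in LE than in GE on every day, and LE held its highest levels of the series. On day 10 its LE level was uneven, at 7.22, 87.2, 688 and 1.62 RPKM in replicates 01, 03, 05 and 07. On day 12 the 4 LE libraries held 4286, 2091, 1139 and 1565 RPKM. On day 14 they held 14502, 19908, 8767 and 12240.4 RPKM. Each day 14 library lay above each day 12 library, and each day 12 library above each day 10 library. On day 16 the values were 21207, 12270.2, 42110.1 and 32680.5 RPKM, overlapping with day 14. On day 20 they were 7844, 1293, 13856 and 11036 RPKM, with replicate 19 far below the other three and inside the day 12 range. Read support was ample after day 10: between 2265 and 176642 exon reads a library, against 8 to 3211 on day 10. By rank of RPKM among all features, LGALS15 was first or second in all LE libraries of days 14 and 16 and between rank 1 and rank 14 on day 20. It held up to 4.05% of the exon reads of an LE library on day 16, although its gene model has only 243 bases of exon.

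**Figure D1:**
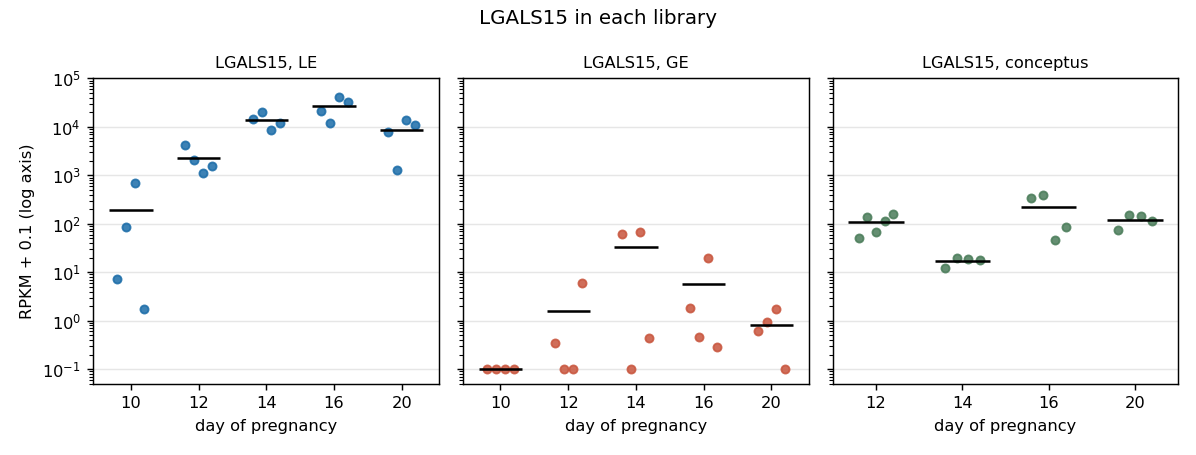
RPKM of LGALS15 plus 0.1 on a log axis, in each LE, GE and conceptus library by day of pregnancy; points are libraries and black bars are group means. LE libraries climb over days 10, 12 and 14 to at least 8767 RPKM, GE libraries stay at or below 68.74 RPKM, and conceptus libraries lie between 12.4 and 399 RPKM.

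Against day 10, with all 20 LE libraries in 1 limma fit on log2(RPKM + 1) and Benjamini-Hochberg adjustment over 9203 genes, LGALS15 was higher on day 14 by 8.62 ± 1.07 log2 units (SE; adjusted p = 1.32e-05). It was also higher on day 16, by 9.50 (adjusted p = 2.29e-05), and on day 20, by 7.54 (adjusted p = 0.000865). In each of these comparisons the libraries did not overlap. The later steps were not called: the day 14 over day 12 difference was 2.73 (adjusted p = 0.0909, no overlap), that of day 16 over day 14 was 0.88 (adjusted p = 0.622), and that of day 20 over day 16 was -1.96 (adjusted p = 0.630). The first step, day 12 over day 10, was 5.89 (adjusted p = 0.00998) without overlap. Its adjusted p was 0.0898 without LE day 10 replicate 01, 0.055 without LE day 10 replicate 07 and 0.0549 without LE day 12 replicate 09. It was also not called with no filter on low values (adjusted p = 0.0503). On recovered reads neither edgeR (3.31, adjusted p = 0.318) nor DESeq2 (3.25, adjusted p = 0.0734) called it. The day 14 over day 12 step was called without LE day 10 replicate 05 (adjusted p = 0.0292) or 07 (adjusted p = 0.0459), with RLE scaling (adjusted p = 0.0477), with only the libraries of both days (adjusted p = 0.0152), and by edgeR (adjusted p = 0.0461) and DESeq2 (adjusted p = 0.0154) on recovered reads.

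In GE the same gene was low and uneven between libraries. On day 10 all 4 GE libraries had 0 reads, which allows up to 0.178 RPKM over the group (3 counts over the 4 libraries, counting error only). Day 12 libraries held 0.25, 0, 0 and 5.79 RPKM, and day 20 libraries 0.5, 0.83, 1.61 and 0. On day 14 GE libraries B01 and B05 held 62.54 and 68.74 RPKM, while B03 held 0 and B07 0.35. On day 16 the values were 1.71, 0.37, 19.75 and 0.19 RPKM, the highest in replicate 30. The GE libraries thus split within a day, and no GE group lay wholly above 1 RPKM. The mean of day 14 was 32.9 ± 37.9 RPKM (SD, n = 4), at least 185-fold higher than the day 10 limit, and limma gave a log2 difference of 3.14 for day 14 over day 10 (adjusted p = 0.0497). That call did not hold in 16 of 20 fits that each left out 1 GE library, with adjusted p between 0.0524 and 0.159; the exceptions were the fits without day 12 replicate 16, day 14 replicates B03 and B07, and day 16 replicate 30. The day 14 over day 12 difference of 2.37 (adjusted p = 0.158) was called only without GE day 14 replicate B03 (adjusted p = 0.036) or B07 (adjusted p = 0.046).

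CST6, an inhibitor of cysteine proteases that was high in LE, differed between the same GE libraries: it stood at 19.62 and 57.09 RPKM in GE day 14 libraries B01 and B05, and at 0 in B03 and B07. In GE day 16 replicate 30, where LGALS15 was 19.75 RPKM, CST6 was 2.03 RPKM, within the 1.79 to 3.16 RPKM of that day. HSD11B1, which regenerates active glucocorticoid and was also high in LE, was 6.63 RPKM in B01 and 0.16 in B05. The part of LE RNA in these GE values was not tested.

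LE and GE differed in LGALS15 on every day. Mean RPKM was 196 ± 330 in LE against 0 in GE on day 10, which is at least 1101-fold higher for the LE mean and at least 9.1-fold for the lowest LE library. Without LE day 10 replicate 05 the LE mean was 32.02 RPKM and the bound at least 179.8-fold. On day 12 the LE mean of 2270 ± 1399 RPKM was 1504 times the GE mean of 1.51. That GE mean rests on replicate 16, without which it was 0.083 RPKM from 1 read, too few for a ratio. On day 14 the LE mean of 13854 ± 4674 RPKM was 421 times the GE mean, and 660.9 times without GE day 14 replicate B05. The ratio of means was 4917 on day 16, from 27067 ± 13052 RPKM in LE and 5.5 in GE, and 11575 on day 20, from 8507 ± 5400 RPKM in LE and 0.735 in GE (SD, n = 4 throughout). Without GE day 16 replicate 30 the GE mean was 0.757 RPKM and the day 16 ratio 35771, and without GE day 20 replicate 022 the day 20 ratio was 19189.6. LE and GE libraries did not overlap on any of the 5 days. In 1 limma fit of all 40 LE and GE libraries over 11131 genes, the log2 difference LE minus GE was 5.08, 10.19, 10.56, 12.95 and 11.91 on days 10, 12, 14, 16 and 20 (SE 1.17, adjusted p = 0.00217, 1.2e-07, 8.3e-09, 2.66e-10 and 2.97e-09). LE and GE were captured from the same slide of each animal, but the labels do not tie a given LE library to a GE library, so the test was unpaired. The change in LE minus the change in GE was 5.11 for day 12 over day 10 (adjusted p = 0.279) and was not called for any step. Without LE day 10 replicate 05 it was 6.56 for that step (adjusted p = 0.032).

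LGALS15 in the conceptus was below every LE library from day 12 on. Day 12 conceptuses held 50.49, 139.1, 69.13, 113.3 and 160.2 RPKM. Day 14 conceptuses held 12.36, 19.49, 18.33 and 17.93 RPKM, all below the lowest of day 12. On day 16 the values were 339, 399, 45.59 and 87.83 RPKM, and on day 20 they were 73.17, 152.6, 145.6 and 113.8. Every day 16 and day 20 conceptus lay above every day 14 conceptus, and days 16 and 20 overlapped. In edgeR's quasi-likelihood test on the gene reads of all 17 conceptuses, adjusted over 13918 genes, LGALS15 was higher on day 16 than on day 14 by 3.25 ± 0.59 log2 units (adjusted p = 0.000365) and higher on day 20 than on day 14 by 2.40 (adjusted p = 0.00163). Day 20 over day 16 was -0.85 (adjusted p = 0.221). Day 14 over day 12 was -3.44 (adjusted p = 4.53e-05), and there the day and the amplification that the protocol gives for day 12 RNA cannot be told apart. The day 12 counts also hold reads outside exons, so the kind of reads counted differs between these days. With exon reads on day 12 the difference was -3.87. Conceptuses were flushed through the uterine lumen, and the part of uterine material in their LGALS15 reads was not tested. In every tissue the LGALS15 values are uncertain to the extent that reads of near-identical galectin copies were shared or split by the counting, whose rule is not stated in the labels or headers.

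LGALS3 was barely detected in LE on day 10 and present on every later day. Its 4 day 10 libraries held 0.2, 0.77, 0.21 and 0.26 RPKM, from 3 to 9 exon reads each. Day 12 libraries held 16.5, 4.59, 3.26 and 25.04 RPKM, and day 14 libraries 12.9, 16.63, 196.2 and 21.85, with the third of these, B06, far above the rest. Day 16 libraries held 37.41, 13.9, 21.79 and 15.4 RPKM and day 20 libraries 3.65, 1.77, 2.00 and 10.69. All LE libraries of days 12 to 20 lay above all of day 10, and day 20 lay below day 16 without overlap. LGALS3 rose on day 14 over day 10 by 4.59 ± 0.72 log2 units (limma, adjusted p = 0.000162) and on day 16 over day 10 by 4.00 (adjusted p = 0.00121). Without B06 the day 14 mean was 17.13 ± 4.5 RPKM (SD, n = 3), against 61.9 ± 89.6 RPKM with it (SD, n = 4), and the day 14 over day 10 difference was 3.73 (adjusted p = 0.000288). The difference of day 12 over day 10 was 2.93 (adjusted p = 0.0687); it was called without B06 (adjusted p = 0.0156) and without LE day 12 replicate 13 (adjusted p = 0.0489), with a pseudocount of 0.1 (adjusted p = 0.0207), with only the libraries of both days (adjusted p = 0.0200) and by DESeq2 (adjusted p = 0.000342). Day 20 over day 10 was 1.78 (adjusted p = 0.175), and was called with a pseudocount of 0.1 (adjusted p = 0.0470), with only the libraries of both days (adjusted p = 0.0330) and by DESeq2 (adjusted p = 0.0380). Day 14 over day 12 was called by edgeR (adjusted p = 0.0374) and DESeq2 (adjusted p = 0.00499) on recovered reads and not by limma. Day 20 over day 16 was -2.22 (adjusted p = 0.235).

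In GE, LGALS3 ranged from 0 to 8.74 RPKM on all days, with 0 reads in GE day 10 replicate 04 and in GE day 14 replicates B01 and B03. The group means ran from 1.22 ± 0.85 on day 10 to 4.72 ± 1.89 RPKM on day 20 (SD, n = 4), and limma on all 20 GE libraries called it in no comparison of days. Day 20 over day 10 (1.42) was called when only the libraries of those days were fitted (adjusted p = 0.0411). LE and GE overlapped on days 10, 12 and 20 and separated on days 14 and 16. The log2 difference LE minus GE was 3.46 ± 0.70 on day 14 (adjusted p = 0.000171) and 2.33 ± 0.70 on day 16 (adjusted p = 0.0137). It was 2.59 on day 14 without LE day 14 replicate B06 (adjusted p = 0.00233). With only the day 14 libraries fitted the day 14 difference was not called (adjusted p = 0.0521). The day 16 difference was not called without LE day 16 replicate 25 (2.05, adjusted p = 0.0537), with a pseudocount of 0.1 (adjusted p = 0.0806) or by edgeR on recovered reads (adjusted p = 0.0520).

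The highest LGALS3 values of the series were in the conceptus, and LGALS3 was the highest of the 5 genes there by mean RPKM. On day 14 LE and conceptus overlapped, with means of 61.9 RPKM in LE (17.13 without B06) and 42.19 in the conceptus. RPKM is scaled to mapped reads, and exon reads were a smaller part of these in LE. LE day 14 replicate B02 had 3.987 M exon reads of 14.47 M mapped, and conceptus day 14 replicate 1 had 11.71 of 15.65 M. As a share of exon reads, LGALS3 held 0.0035, 0.0042, 0.0486 and 0.0056% in LE on day 14. In day 14 conceptuses it held 0.0077, 0.0027, 0.0012 and 0.0051%. LE RNA was amplified, while no amplification is described for conceptuses after day 12. Day 12 conceptuses held 210.9, 154, 235.8, 115.3 and 246.7 RPKM, and day 14 conceptuses 76.59, 27.71, 12.59 and 51.87. Day 16 conceptuses held 249.1, 473.3, 456.5 and 273 RPKM, and day 20 conceptuses 255.6, 90.21, 116.4 and 185.8. Day 14 lay below each of the other days without overlap. In edgeR, day 16 was above day 14 by 2.68 ± 0.47 log2 units (adjusted p = 0.000286) and day 20 above day 14 by 1.48 (adjusted p = 0.00883). Day 20 was below day 16 by a log2 difference of -1.20 (adjusted p = 0.0459), with 1 day 20 conceptus inside the day 16 range, and this call was lost in 9 of 17 fits that left out 1 conceptus, at adjusted p between 0.0523 and 0.120. Those 9 were the fits without conceptus day 12 replicates 1, 3 and 5, day 14 replicate 4, day 16 replicates 2 and 4, and day 20 replicates 3, 4 and 5. Day 14 over day 12 was -2.83 (adjusted p = 3.24e-05), where amplification, the kind of reads counted and day cannot be told apart. With exon reads on day 12 it was -3.37.

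LGALS3BP took different courses in LE and GE around day 14. In GE its day 12 libraries held 7.18, 5.17, 5.49 and 2.52 RPKM. Its day 14 libraries held 10.63, 60.67, 35.77 and 54.28 RPKM, all above day 12. Day 16 libraries held 44.1, 15.56, 14.84 and 10.67 RPKM, and day 20 libraries 5.05, 4.16, 2.68 and 7.62, so that day 16 overlapped with day 14 and day 20 lay below both. In LE the day 14 libraries were the low ones, at 1.83, 1.24, 0.1 and 2.58 RPKM, against 10.94, 8.73, 5.27 and 1.12 RPKM on day 12. The same LE day 14 libraries listed the fewest genes at 1 RPKM or more, with 4528 in B06, where LGALS3BP was 0.1 RPKM, and the part of library quality in these values was not tested. LE day 16 libraries held 5.83, 7.48, 6.82 and 12.00 RPKM, all above day 14, and LE day 20 libraries 5.39, 13.85, 4.63 and 19.95.

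LGALS3BP rose in GE on day 14 over day 12 by 2.58 ± 0.51 log2 units (limma over 10049 genes, adjusted p = 0.00213) and on day 14 over day 10 by 2.93 (adjusted p = 0.000393). It was also higher on day 16 than on day 10 in GE, by 2.08 (adjusted p = 0.0133), though not without GE day 16 replicate 26 (1.67, adjusted p = 0.0728) or GE day 10 replicate 04 (1.79, adjusted p = 0.0546). The GE day 16 over day 14 difference was -0.85 (adjusted p = 0.262), and -1.38 without GE day 14 replicate B01 (adjusted p = 0.0383). In LE the day 14 over day 12 difference was -1.49 (adjusted p = 0.0875) and that of day 14 over day 10 was -1.53 (adjusted p = 0.0673). The first of these was called without LE day 12 replicate 15 (-2.01, adjusted p = 0.0281), and the second without LE day 12 replicate 15 (adjusted p = 0.0433) or LE day 14 replicate B08 (adjusted p = 0.0453), and with a pseudocount of 0.1 (adjusted p = 0.0396), without mitochondrial reads in the scaling (adjusted p = 0.0393) or by DESeq2 (adjusted p = 0.0193). The LE difference of day 16 over day 14 was 1.97 ± 0.58 (adjusted p = 0.0284). It was not called without LE day 14 replicate B06 (adjusted p = 0.0727) or without LE day 16 replicate 27, 29 or 31 (adjusted p = 0.0535, 0.0519 and 0.0943). It was also lost under 6 of 10 other settings, at adjusted p between 0.0502 and 0.104, edgeR among them.

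The difference between LE and GE changes was called for LGALS3BP in 2 of 4 steps. The LE change of day 14 over day 12 minus the GE change was -4.06 ± 0.77 log2 units (limma, adjusted p = 0.00342). The LE change of day 16 over day 14 minus the GE change was 2.82 ± 0.77 (adjusted p = 0.0304). Neither was called when only the libraries of the groups compared were fitted (adjusted p = 0.0998 and 0.175). The second was not called in 6 fits that left out 1 library: LE day 14 replicate B06 (adjusted p = 0.0551), LE day 16 replicate 31 (0.0713), GE day 14 replicate B03 (0.0533) and GE day 16 replicates 28, 30 and 32 (0.0621, 0.0633 and 0.0634). On day 14 LE stood below GE by a log2 difference of -3.96 ± 0.55 (adjusted p = 4.73e-07), with means of 1.44 ± 1.05 RPKM in LE and 40.34 ± 22.44 RPKM in GE (SD, n = 4) and no overlap. On the other 4 days the LE and GE libraries overlapped and LGALS3BP was not called in the limma fit of all LE and GE libraries. The day 16 difference was -1.14 (adjusted p = 0.134), and it was called with only the day 16 libraries fitted (adjusted p = 0.0312).

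A list of interferon-response genes, of which 32 were tested in each epithelium, was higher in GE on day 14 than on day 12, as LGALS3BP was; no test compares the list with LGALS3BP. On day 14 over day 12, 29 of 32 were higher in GE and 0 lower (16.0% of all genes tested were called), and 3 of 32 were higher in LE and 0 lower (13.1%; limma). The median log2 change of the list was 2.39 in GE, against -0.18 for all genes tested, and 0.28 in LE, against -0.34 for all genes tested. On day 16 over day 14 in GE, 7 of 32 were higher and 0 lower (17.5%), with a median of 1.04, against 0.25 for all genes tested, while LGALS3BP stood at -0.85. On day 16 over day 14 in LE, 1 was higher and 2 lower (12.4%), with a median of -0.18, against 0.49 for all genes tested, while LGALS3BP was higher by 1.97. Its summed level was 1322 to 9204 RPKM in GE on day 14, against 285.9 to 1054 on day 12, and 5094 to 6220 on day 16. It was 1972 to 4389 RPKM in LE on day 14, against 861.3 to 3201 on day 12. Within GE day 14 the library order differed: B01, the lowest of the 4 for LGALS3BP, was the second highest for the list at 6028 RPKM. The part of interferon in the LGALS3BP values was not tested. Endothelial markers were also highest in GE on day 14, at a summed 28.97 to 91.55 RPKM, against 5.57 to 12.36 on day 12, and their part was not tested.

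**Figure D2:**
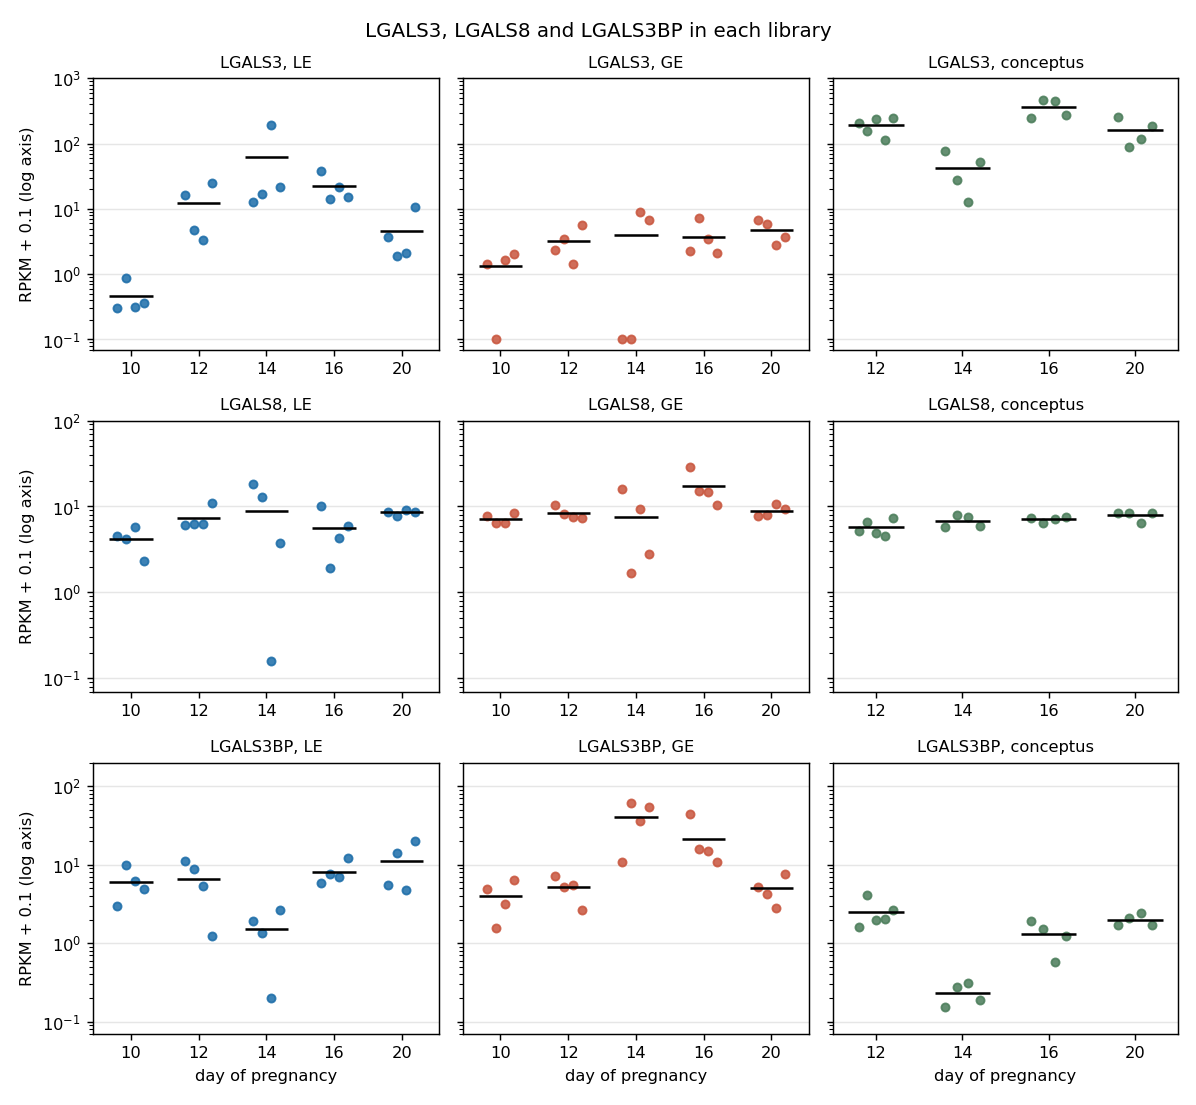
RPKM plus 0.1 on log axes for LGALS3 (top), LGALS8 (middle) and LGALS3BP (bottom) in each LE, GE and conceptus library by day; points are libraries and black bars are group means. LGALS3BP is low in LE and high in GE on day 14, and LGALS8 in the conceptus stays between 4.49 and 8.38 RPKM.

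In the conceptus LGALS3BP was a low gene. Day 12 conceptuses held 1.52, 4.04, 1.87, 1.93 and 2.57 RPKM, and day 14 conceptuses 0.055, 0.177, 0.206 and 0.090, which are 2 to 9 reads each. Day 16 conceptuses held 1.81, 1.43, 0.481 and 1.14 RPKM, and day 20 conceptuses 1.62, 1.99, 2.35 and 1.60. Day 14 lay below all other days without overlap. In edgeR day 16 was above day 14 by 2.74 ± 0.46 log2 units (adjusted p = 0.000182) and day 20 above day 14 by 3.37 (adjusted p = 8.87e-06). Day 20 over day 16 was 0.63 (adjusted p = 0.205). Day 14 over day 12 was -4.63 (adjusted p = 9.1e-08). Of 32 tested genes of the interferon list, 28 were lower on day 14 than on day 12 and 3 higher (76.1% of all genes tested were called), with a median log2 change of -4.30, against -0.01 for all genes tested. On day 16 over day 14, 20 were higher and 1 lower (49.9%), with a median of 2.03, against 0.06 for all genes tested. For day 14 over day 12, amplification, the kind of reads counted and day cannot be told apart. With exon reads on day 12 LGALS3BP was at -5.37.

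By RPKM LGALS8 was the most even of the 5 genes in the conceptus, but not in the epithelia. In the conceptus all 17 libraries lay between 4.49 and 8.38 RPKM, with group means of 5.66 ± 1.2, 6.64 ± 1.11, 7.03 ± 0.52 and 7.83 ± 1 RPKM on days 12, 14, 16 and 20 (SD), and edgeR called no comparison of days on the deposited gene reads. With exon reads in place of gene reads on day 12, a setting chosen after the data were seen, day 14 over day 12 was called lower (-0.99, adjusted p = 2.49e-05), against 0.08 with gene reads. As a share of exon reads LGALS8 held 0.0074 to 0.0135% on day 12 and 0.0040 to 0.0054% on day 14. Its log2 difference of day 16 over day 14 was -0.35 (adjusted p = 0.0601), while the mean RPKM was higher on day 16; edgeR's scaling (TMM) and RPKM's differ. It was called in 4 of 17 fits that left out 1 conceptus, at adjusted p of 0.0444 and 0.0497 without day 12 replicates 2 and 3 and of 0.046 and 0.0464 without day 14 replicates 1 and 4. In LE the values on days 10, 12, 16 and 20 lay between 1.84 and 10.81 RPKM. On LE day 14 they were 18.1, 12.84, 0.06 and 3.69 RPKM, and the lowest, B06, rested on 4 reads although LGALS3 was highest in the same library. Each LE library of day 12 lay above each of day 10 (log2 difference 0.71, adjusted p = 0.917), and limma called LGALS8 in no LE comparison of days.

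In GE, LGALS8 was highest on day 16. Its GE day 16 libraries held 28.56, 14.93, 14.7 and 10.36 RPKM, and its GE day 14 libraries 15.99, 1.59, 9.13 and 2.72, so the days overlapped. Limma called it higher on day 16 than on day 14 by 1.42 ± 0.45 log2 units (adjusted p = 0.0329). This was lost without GE day 14 replicate B03 (adjusted p = 0.0921) or B07 (adjusted p = 0.0762) and without GE day 16 replicate 26, 28 or 30 (adjusted p = 0.109, 0.0628 and 0.064), and by edgeR (adjusted p = 0.0902) and DESeq2 (adjusted p = 0.115) on recovered reads. On day 16 LE lay below GE, at 10.03, 1.84, 4.24 and 5.84 RPKM in LE, with a log2 difference of -1.56 ± 0.56 (adjusted p = 0.0419) and no overlap. That difference was not called without LE day 16 replicate 27, 29 or 31 (adjusted p = 0.162, 0.0868 and 0.0582) or without GE day 16 replicate 26, 28 or 30 (adjusted p = 0.141, 0.0687 and 0.068). It was also not called under 8 of 10 other settings, at an adjusted p of up to 0.187, edgeR and DESeq2 on recovered reads among them. On day 10 LE libraries also lay below GE libraries without overlap, at means of 4.12 ± 1.43 RPKM in LE and 7.11 ± 1.04 RPKM in GE (SD, n = 4; log2 difference -0.70, adjusted p = 0.450). The difference of LE and GE changes for day 16 over day 14 was -1.47 (adjusted p = 0.313), and -2.31 without LE day 14 replicate B06 (adjusted p = 0.0356).

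LGALS4, best known from the intestinal epithelium, was low everywhere. It reached at most 1.06 RPKM in LE (day 10 replicate 01, 65 reads) and 0.93 RPKM in GE (day 12 replicate 10, 46 reads). All 4 LE libraries of day 14 had 0 reads, as did GE day 14 libraries B01 and B03. It did not reach 1 RPKM in 4 libraries of either epithelium and was left out there by the filter of the limma fit. In edgeR and DESeq2 on recovered reads, where it passed their filter, both called it in LE for day 14 over days 12 and 10 and for day 16 over day 14, and between LE and GE on day 14. All 4 comparisons involve the LE day 14 libraries at 0 reads, which also listed the fewest genes of LE at 1 RPKM or more. In the conceptus it ranged from 0.038 to 0.283 RPKM. Day 16 conceptuses had 15, 12, 13 and 13 reads and day 14 conceptuses 4, 3, 4 and 6, with a log2 difference of 1.21 (edgeR, adjusted p = 0.0206). This was lost without conceptus day 14 replicate 2 (adjusted p = 0.0647) or 3 (adjusted p = 0.0548). Day 20 conceptuses had 6, 2, 6 and 2 reads, below day 16 by a log2 difference of -1.64 (adjusted p = 0.00538), and day 14 over day 12 was -1.67 (adjusted p = 0.00086), with overlap. There amplification, the kind of reads counted and day cannot be told apart, and with exon reads on day 12 the value was -2.37.

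Counts over the members stand beside those over all genes. In LE, limma called 1 of 4 tested members for day 12 over day 10 (0.565% of all genes tested), 0 of 4 for day 14 over day 12 (13.1%), 1 of 4 for day 16 over day 14 (12.4%) and 0 of 4 for day 20 over day 16 (0.261%). For the comparisons with 0, 3 and 1 of the 4 had an unadjusted p under 0.05, and edgeR on recovered reads called 2 and 0 of them and DESeq2 also 2 and 0. For day 12 over day 10 edgeR called 0 and DESeq2 1, LGALS3 in place of LGALS15. For day 16 over day 14 edgeR called 0 and DESeq2 2, LGALS3 and LGALS3BP. Against day 10 in LE it called 2 of 4 on day 14 (18.9%), 2 of 4 on day 16 (8.8%) and 1 of 4 on day 20 (4.32%), where edgeR called 2, 2 and 1 and DESeq2 3, 2 and 2. In GE it called 0 of 4 for day 12 over day 10 (0.527%), 1 of 4 for day 14 over day 12 (16.0%), 1 of 4 for day 16 over day 14 (17.5%) and 0 of 4 for day 20 over day 16 (0.308%). In those GE comparisons with 0, an unadjusted p under 0.05 was found for 0 and 1 member, and no member was called by edgeR or by DESeq2 (0 each). For day 14 over day 12 edgeR and DESeq2 called 1 each, and for day 16 over day 14 they called 0 each. Against day 10 in GE it called 2 of 4 on day 14 (21.9%), 1 of 4 on day 16 (6.47%) and 0 of 4 on day 20 (6.43%). On day 20, 1 member passed an unadjusted p under 0.05 and both read-based tests, edgeR and DESeq2, called 0; on day 14 both called 2, and on day 16 edgeR called 1 and DESeq2 2.

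Between LE and GE, 1 of 4 members was called on day 10 (14.3% of all genes tested), 1 of 4 on day 12 (12.2%), 3 of 4 on day 14 (35.8%), 3 of 4 on day 16 (22.5%) and 1 of 4 on day 20 (10.7%). On day 16 edgeR on recovered reads called 1 and DESeq2 2, on day 14 both called 3, and on the other 3 days both called 1. The difference of changes was called for 0 of 4 members for day 12 over day 10 (0.35%), 1 for day 14 over day 12 (2.61%), 1 for day 16 over day 14 (4.16%) and 0 for day 20 over day 16 (0.467%). In both comparisons with 0, unadjusted p was under 0.05 for 2 members, while edgeR called 0 and DESeq2 called 0. In the conceptus, edgeR called 4 of 5 members for day 14 over day 12, all lower (76.1% of all genes tested were called in either direction), and 4 of 5 for day 16 over day 14, all higher (49.9%). It called 2 of 5 for day 20 over day 16, both lower (36.9%), and 3 of 5 for day 20 over day 14, all higher (66.5%). The comparisons of a tissue share libraries, so these counts are not independent of each other.

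**Figure D3:**
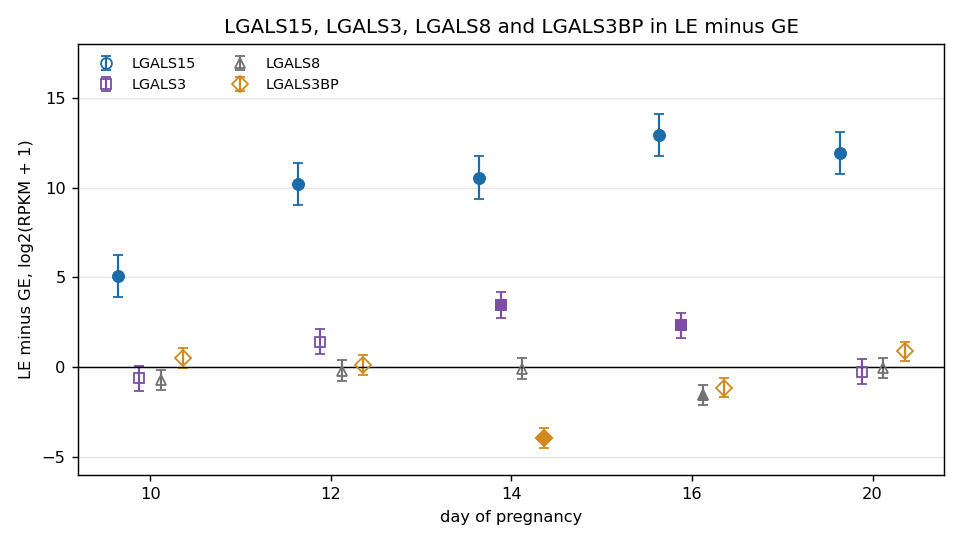
Difference in log2(RPKM + 1) between LE and GE by day for LGALS15, LGALS3, LGALS8 and LGALS3BP; bars are standard errors of the limma fit and filled symbols have an adjusted p under 0.05. LGALS15 lies between 5.08 and 12.95 on all 5 days, and LGALS3BP is at -3.96 on day 14.

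GAL-1 (ENSOARG00000013956), described in the files as a soluble galactoside-binding lectin and listed by RefSeq as a synonym of LGALS1, was highest in the conceptus. Galectin-1 is the prototype galectin, a small protein with a single sugar-binding domain that works as a dimer and is abundant in stromal cells. Conceptuses held 20.49 to 46.66 RPKM on day 12, 104.7 to 202.3 on day 14, 143.2 to 226.3 on day 16 and 260.5 to 352.5 on day 20. Day 20 over day 16 was 0.78 ± 0.23 log2 units (edgeR, adjusted p = 0.0162), without overlap. Day 16 over day 14 was -0.34 (adjusted p = 0.231) and day 20 over day 14 was 0.43 (adjusted p = 0.109), neither called, although the RPKM of days 20 and 14 did not overlap. Day 14 over day 12 was 1.88 (adjusted p = 8.7e-07), while 4 of the 5 members were lower. There amplification, the kind of reads counted and day cannot be told apart. Stromal markers rose in the conceptus as well, to a summed 5541 to 18499 RPKM on day 20, against 129 to 2257 on day 16, and their part in GAL-1 was not tested.

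In GE, GAL-1 was highest on day 10, at 32.92, 39.37, 13.1 and 28.89 RPKM. GE day 16 libraries held 2.2, 0.69, 3.17 and 3.8 RPKM, below day 10 by a log2 difference of -3.10 ± 0.77 (limma, adjusted p = 0.0141), and day 20 was below day 10 by -2.86 (adjusted p = 0.0255). GE day 14 libraries split, with 19.65 and 49.27 RPKM in B01 and B05 and 0.23 and 4.76 in B03 and B07. LE libraries held 2.17 to 7.29 RPKM on day 10, below GE by a log2 difference of -2.39 (adjusted p = 0.0295). On day 14 the difference LE minus GE was -2.09 (adjusted p = 0.0301), with overlap.

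The row described in the files as galectin-14 (ENSOARG00000001279) was higher in LE than in GE on 4 of 5 days, and in LE it was lower on day 14 than on day 10, where LGALS15 was higher. Galectin-14 is known in sheep from eosinophils. LE libraries held 88.76, 100.8, 170.9 and 124.6 RPKM on day 10, then 21.26, 30.36, 128 and 14.75 on day 12, and 0, 0, 1.83 and 0 on day 14. The log2 difference was -6.51 ± 1.11 for day 14 over day 10 (limma, adjusted p = 0.000356) and -4.73 for day 14 over day 12 (adjusted p = 0.0087), both without overlap. Those LE day 14 libraries listed the fewest genes of LE at 1 RPKM or more, and the part of library quality was not tested. On day 16 the LE libraries held 0, 7.18, 20.93 and 77.13 RPKM, and on day 20 they held 53.2, 114.6, 1.02 and 91.04. GE libraries held at most 15.81 RPKM (day 12 replicate 12) and at most 0.55 on the other days. The log2 difference LE minus GE was 6.72, 3.42, 3.34 and 4.81 on days 10, 12, 16 and 20 (adjusted p = 1.04e-06, 0.0102, 0.00706 and 0.000363) and 0.27 on day 14 (adjusted p = 0.861), with overlap on days 12, 14 and 16. In the conceptus it was 8.69 to 14.33 RPKM on day 12, 0 to 0.363 on day 14, 1.02 to 2.24 on day 16 and 5.25 to 8.08 on day 20. Day 14 over day 12 was -6.88 (edgeR, adjusted p = 8.27e-09), where amplification, the kind of reads counted and day cannot be told apart. Day 16 over day 14 was 3.25 (adjusted p = 0.000514) and day 20 over day 16 was 1.88 (adjusted p = 0.00239), all without overlap. Immune markers in LE summed to 4.26 to 13.89 RPKM on day 10 and 17.96 to 79.77 on day 14, and their part was not tested.

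**Figure D4:**
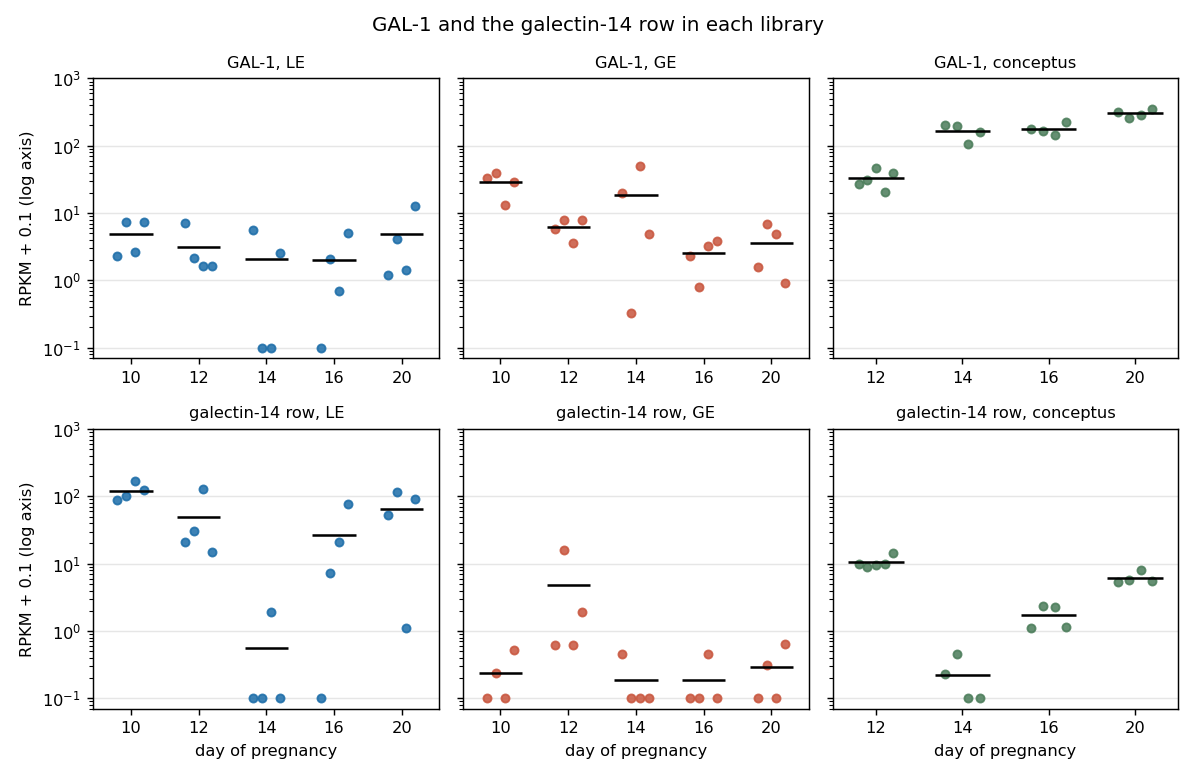
RPKM plus 0.1 on log axes for GAL-1 (top) and the galectin-14 row (bottom) in each LE, GE and conceptus library by day; points are libraries and black bars are group means. GAL-1 is highest in day 20 conceptuses, at 260.5 to 352.5 RPKM, and the galectin-14 row is at 0 in 3 of 4 LE libraries on day 14.

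Of the other galectin rows, LGALS12, LGALSL, the row described as grifin and 1 of 4 rows named only as galectin stayed below 1 RPKM in every library. LGALS2 reached 4.87 RPKM in LE on day 10. A galectin row without a symbol (ENSOARG00000016020) was at 6.68 to 11.9 RPKM in LE on day 10, at 0 to 0.31 on day 14 and at most 1.04 RPKM in GE on any day. Another (ENSOARG00000016186) reached 22.16 RPKM in LE and 43.21 in GE. The last (ENSOARG00000005829) stood at 29.53 RPKM, from 166 reads, in LE day 14 replicate B04, at 0 in the other 3 LE libraries of that day and below 1 RPKM in every other library. These rows may share reads with one another or with LGALS15.

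Glycoproteins that galectins bind were followed as a list of 24 genes, integrins, laminins, mucins and lysosomal membrane proteins among them, of which 22 had a row. In LE, 8 of 21 tested were higher on day 16 than on day 10 and 0 lower (8.8% of all genes tested were called), with a median log2 change of 1.50, against 0.37 for all genes tested. Between days 14 and 12 in LE, 2 of 21 were higher and 0 lower (13.1%), a share below that of all genes. ITGB6, the epithelial integrin subunit that pairs with ITGAV, was 11.8 ± 3.82 RPKM in LE on day 16 and 0.29 ± 0.41 RPKM on day 10 (log2 3.31, adjusted p = 0.000762). ITGAV averaged 37.5 RPKM in LE on day 16 and 11.7 RPKM on day 10 (log2 1.69, adjusted p = 0.0233). LAMB1, a laminin chain of basement membranes, differed by 2.42 over the same days (adjusted p = 0.0039), and ITGA5, a fibronectin receptor subunit, by 2.13 (adjusted p = 0.00982). LAMP1, a lysosomal membrane glycoprotein, was 31.5 ± 23.0 RPKM on day 14 and 4.43 ± 2.55 RPKM on day 12 in LE (log2 2.34, adjusted p = 0.0157).

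Between LE and GE, 5 of 22 genes of that list were higher in LE and 1 lower on day 16 (22.5% of all genes tested were called), and 2 were higher and 4 lower on day 14 (35.8%). Both counts are close to or below the share over all genes. MUC16, a large membrane mucin, was 27.7 ± 32.1 RPKM in LE and 0.057 ± 0.062 RPKM in GE on day 14 (log2 3.92, adjusted p = 3.34e-05). LAMA5, a laminin chain, went the other way on day 14, with 1.57 RPKM in LE and 18.3 RPKM in GE (log2 -3.21, adjusted p = 2.37e-06). CD47, a membrane glycoprotein of the immunoglobulin family, was 6.1 ± 3.21 RPKM in LE and 39.3 ± 16.2 RPKM in GE on day 16 (log2 -2.53, adjusted p = 0.00013). In the conceptus, 14 of 22 were higher on day 20 than on day 14 and 2 lower (66.5% of all genes tested were called, close to the share of the list), with a median of 1.11, against 0.06 for all genes tested. CD44, a hyaluronan receptor, averaged 98.3 RPKM on day 20 and 1.71 RPKM on day 14 (log2 5.39, adjusted p = 3.59e-07), and MUC1, an epithelial mucin, averaged 26.4 RPKM on day 20 and 0.616 RPKM on day 14 (log2 4.96, adjusted p = 1.36e-07).

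Enzymes that build or cap the lactosamine chains to which galectins bind (27 genes, all with a row) gave few calls between days in the epithelia. In LE, 0 of 19 tested were higher on day 14 than on day 12 and 1 was lower (13.1% of all genes tested were called), and in GE 2 of 18 were higher and 0 lower (16.0%). GCNT2, which branches the chains, was lower in LE than in GE on days 10, 14, 16 and 20. On day 16 it averaged 7.79 ± 2.51 RPKM in LE and 79.7 ± 20.0 RPKM in GE (log2 -3.20, adjusted p = 2.02e-06). ST3GAL6, a sialyltransferase that caps them, was 0.56 ± 0.84 RPKM in LE and 6.54 ± 1.77 RPKM in GE on day 16 (log2 -2.37, adjusted p = 0.000751). In the conceptus, B4GALT1, which adds the galactose, averaged 226 RPKM on day 16 and 66.2 RPKM on day 14 (log2 1.34, adjusted p = 0.000121), and 9 of 27 enzymes were higher and 8 lower in that comparison (49.9% of all genes tested were called).

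Likeness to LGALS15 was measured as Pearson's r of log2(RPKM + 1) with each of the other named genes among 7808 over the 20 LE libraries. Among the genes closest to it were CST6 (r = 0.905), POMP (0.901), HSD11B1 (0.884), YBX1 (0.869) and LGMN (0.866). POMP is a proteasome assembly factor, YBX1 a nucleic acid binding protein and LGMN a lysosomal cysteine protease that CST6 inhibits. These 20 points share days and tissue capture, so part of each r is the day: with day means removed, r was 0.721 for POMP, 0.527 for HSD11B1, 0.486 for LGMN, 0.455 for YBX1 and 0.409 for CST6.

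**Figure D5:**
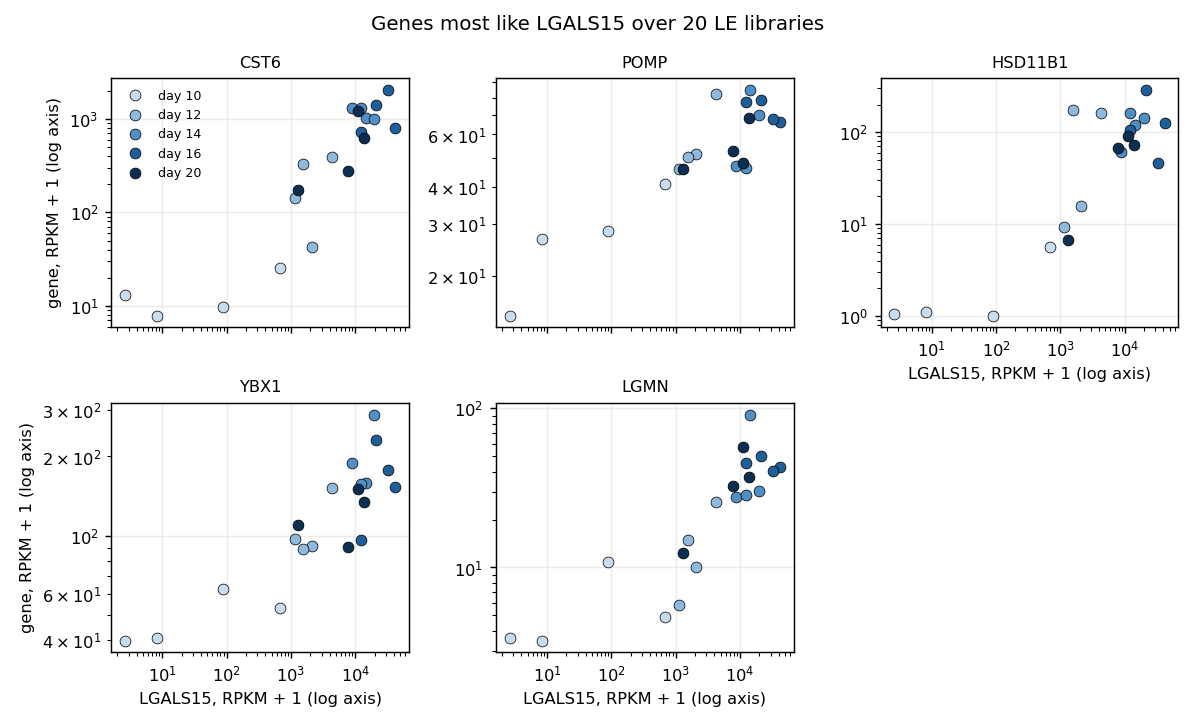
RPKM plus 1 on log axes of CST6, POMP, HSD11B1, YBX1 and LGMN (vertical) against LGALS15 (horizontal) in the 20 LE libraries, shaded by day from pale (day 10) to dark (day 20). The 4 day 10 libraries form the lower left of each panel, and Pearson's r on the log2 scale runs from 0.866 (LGMN) to 0.905 (CST6).

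Of these genes, CST6 and HSD11B1 were low in GE, with group means of at most 19.2 and 1.73 RPKM there. YBX1 had group means of 38.46 to 132.8 RPKM in GE, and POMP of 15.6 to 40.03 RPKM. A list of 19 elongation genes, with 16 rows, held CST6 and HSD11B1. Its genes were picked because LE was already reported to regulate them under progesterone or interferon tau. In LE 11 of 14 tested were higher on day 14 than on day 10 and 0 lower (18.9% of all genes tested were called), with a median log2 change of 4.19, against -0.16 for all genes tested. Over day 10, 10 were higher on day 16 (8.8%) and 9 on day 20 (4.32%). The list was also chosen with earlier results of these data known. A high count was thus partly set by the choice, and these counts cannot be read as an excess over all genes. RBP4, a retinol carrier, averaged 1566 RPKM in LE on day 14 and 7.17 RPKM on day 10 (log2 7.66, adjusted p = 2.21e-05), and SLC2A1, a glucose transporter, averaged 257.7 RPKM on day 14 and 17.4 RPKM on day 10 (log2 3.90, adjusted p = 6.35e-05).

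Over the 20 GE libraries genes close to LGALS15 included ZBTB49, RMDN3, RHOD, RASSF4 and TGFBR2, with r between 0.764 and 0.808. Spearman's rho was between 0.259 and 0.562 for them, and r with day means removed was between 0.686 (RHOD) and 0.764 (ZBTB49). LGALS15 in GE was above 5.79 RPKM only in day 14 replicates B01 and B05 and day 16 replicate 30, so these r values rest on few libraries. In the conceptus, where LGALS3 was the highest of the 5 genes, the closest to LGALS3 over 17 libraries was REEP6, a protein of endoplasmic reticulum membranes (r = 0.903). REEP6 averaged 5.77 ± 1.06, 2.11 ± 1.02, 9.56 ± 1.48 and 7.58 ± 1.47 RPKM on days 12, 14, 16 and 20 (SD). TRIM21, SPICE1, ATP8B1, IDH1 and CEP95 followed, with r between 0.815 and 0.849. With day means removed, r was 0.668 for REEP6, 0.663 for TRIM21, 0.151 for SPICE1, 0.779 for ATP8B1, 0.432 for IDH1 and 0.0066 for CEP95, so the likeness of SPICE1 and CEP95 lies mostly in the day means. Over the 12 conceptuses of days 14 to 20, r was between 0.825 (ATP8B1) and 0.937 (TRIM21).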

How the data were processed

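Reads had been mapped to the sheep genome Oar v3.1, per the submitters' processing notes. No label or header names the aligner, the counting rule or the annotation. The authors deposited RPKM values per library for LE, GE and conceptus, and gene read counts per library for the conceptus, per the file headers. On day 12 those counts include reads outside exons. On later days they match the RPKM, which rests on exon reads, so day 14 over day 12 compares unlike counts. Depth and whole exon reads were recovered here from the RPKM values: of 11996 low LE and GE values, 100% gave a whole number of reads to within 0.1 read. The tables hold 25197 features, and 23 without an identifier were left out.

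LE and GE were tested with limma (trend) on log2(RPKM + 1), over genes at 1 RPKM or more in at least 4 libraries, with all days of a tissue in 1 fit and both tissues in 1 fit for LE against GE. A fold change on this scale understates the change of low genes. The conceptus was tested with edgeR's quasi-likelihood test (TMM) on the deposited counts of all days. Adjusted p is Benjamini-Hochberg over all genes of a comparison, and a gene is called at an adjusted p under 0.05. SE for edgeR is the log2 change divided by the root of F. The plan foresaw RPKM for LE and GE and counts for the conceptus. Scripts were tested on simulated data. The tools were limma 3.58.1, DESeq2 1.42.0 and edgeR 4.0.16 under R 4.3.3, with Python 3.11.15 for joins.

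The members and gene lists were chosen with earlier results of these data known. The rule for named genes allowed the 7 symbols, galectin rows, up to 4 called genes with the smallest adjusted p per list and comparison, and the 6 genes most like LGALS15 (LE, GE) or LGALS3 (conceptus). Some genes that this rule allowed are not reported here. CST6 and HSD11B1 in single GE libraries were chosen after their values were seen. GAL-1 was matched through the files' description and the RefSeq table of ARS-UI_Ramb_v3.0, used for names only. The series' text speaks of 4 animals per tissue, but no label names the animal of a library, so p-values measure the spread between these libraries. No 2 libraries of a group held identical values.

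Neighbouring LE and GE numbers might mark an animal. Their departures from the day mean had correlations of -0.102 to 0.230 (median 0.068). For other LE and GE libraries of a day these were -0.226 to 0.170 (median -0.015), lower at each of these values but overlapping. As no label ties LE and GE libraries to an animal, neighbouring numbers were not treated as pairs in the main test.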

Additional observations from a re-analysis of the deposited data

Results flagged for a closer look

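In groups of 4 or 5 libraries, 8 of 68 combinations of gene and group had 1 library far from the rest by Dixon's test on RPKM. Its chance rate of about 1 in 20 holds for normally distributed values, which RPKM need not be. The count can therefore not be read as an excess over chance. LGALS15 was far above the rest in LE day 10 replicate 05 (688.3 RPKM), in GE day 12 replicate 16 (5.79 RPKM) and in GE day 16 replicate 30 (19.75 RPKM). LGALS3 was far above the rest in LE day 10 replicate 03, at 0.77 RPKM from 9 reads, and in LE day 14 replicate B06, at 196.2 RPKM. LGALS8 was above the rest in LE day 12 replicate 15 (10.81 RPKM) and below the rest in conceptus day 20 replicate 4 (6.333 RPKM). LGALS3BP was above the rest in GE day 16 replicate 26 (44.1 RPKM).

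LGALS3BP changed differently in LE and GE, by the test of the difference itself: the LE change minus the GE change was -4.06 log2 units for day 14 over day 12 and 2.82 for day 16 over day 14. Neither was called when only the libraries of the groups compared were fitted (adjusted p = 0.0998 and 0.175), and the second was not called in 6 fits that left out 1 library.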

How the results depend on the processing

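Of 112 results on single members, 36 were called, and 24 of these were called under all the alternatives run for them. Of the 76 not called, 17 were called under at least 1 alternative. The calls that always held were those of LGALS15 between LE and GE on all 5 days and over day 10 in LE on days 14, 16 and 20, of LGALS3 over day 10 in LE on days 14 and 16, of LGALS3BP in GE on day 14 over days 12 and 10 and between LE and GE on day 14, and in the conceptus all calls but those of LGALS4 on day 16 over day 14 and LGALS3 on day 20 over day 16. Among results called in the main test or under the alternative, 1 changed sign. With exon reads in place of gene reads on day 12, LGALS8 in the conceptus was lower on day 14 than on day 12. Its difference was -0.99 (edgeR, adjusted p = 2.49e-05), against 0.08 with gene reads. This setting was chosen after the data were seen. With it LGALS15 was -3.87, LGALS3 -3.37, LGALS3BP -5.37 and LGALS4 -2.37. Sign changes of results called under neither were not counted. For example, LGALS3 in LE on day 16 over day 14 was -0.59, and 0.28 without LE day 14 replicate B06.

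Calls of members between consecutive days in LE were 2, and 0 with no filter on low values, 1 with TMM scaling, 4 with edgeR and 7 with DESeq2 on recovered reads, each with 2 calls of LGALS4, which the filter on low values left out of the limma fit. Those in GE were 2, and 1 with no filter, with TMM, with RLE, with only the libraries of the groups compared, with edgeR and with DESeq2. Differences between LE and GE changes were 2, and 0 with only the libraries of the groups compared. Leaving out 1 library at a time gave 1 to 3 calls between consecutive days in LE and in GE, 5 to 7 over day 10 in LE (6), 1 to 3 over day 10 in GE (3), 8 to 9 between LE and GE (9), 1 to 3 differences of changes, 9 to 11 between consecutive days in the conceptus (10) and 3 for day 20 over day 14 there. For LGALS15 on LE day 12 over day 10, edgeR on recovered reads gave 3.31 (adjusted p = 0.318) and DESeq2 3.25 (adjusted p = 0.0734); the cause was not tested. Other scalings moved the median of all genes by up to 0.39 log2 units in LE and GE comparisons, over 0.1 in 17 of 23. Without LE day 14 replicate B06 and LE day 20 replicate 19, left out after the data were seen, 2 calls were made between consecutive days in LE and 8 over day 10.

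With neighbouring LE and GE numbers as a replicate block, 9 calls were made between LE and GE and 2 for differences of changes. With the conceptus number as a replicate block there were 9 calls between consecutive days, LGALS3 on day 20 over day 16 being lost (adjusted p = 0.0651), and 3 for day 20 over day 14. Conceptuses of the same number correlated between -0.270 and 0.310. Depth limits LGALS4 in the conceptus, at 2 to 20 reads a library, and LGALS15 in GE on days 10, 12 and 20, at 0 to 17 reads over a group.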
